A study of Homo sapiens with 12 samples.

Results

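The enzymes of glycolysis were followed at the RNA level in cultured human SW48 cells, a line from a colorectal cancer, after drugs that act on chromatin. The members were 10 genes taken in pathway order: HK2, GPI, PFKP, ALDOA, ALDOC, TPI1, PGK1, ENO1, PKM and LDHA, of 18665 genes named on the array. All array probes that the platform annotation assigns to them were used, 19 of the 48801 probes with an identifier. Of these, 16 were detected on all 12 arrays and tested, among 13915 tested probes in all. The other 3 (PFKP probe 2 and ALDOA probes 3 and 4) were detected on 0 arrays and were not tested, so every gene kept at least 1 probe. The 12 Illumina HumanWG-6 v3 arrays formed 4 groups of 3. The combined group received 1 µM azacytidine (5'-Aza-cytidine, an inhibitor of DNA methyltransferases) for 5 days and then 0.5 µM TSA (Trichostatin A, an inhibitor of histone deacetylases) for 2 days. The azacytidine group received the 5 days of azacytidine alone, the TSA group the 2 days of TSA alone, and the control group no drug. All groups were the same microsatellite-unstable line in the same serum-supplemented medium. Treatment times differ between the groups. Time in culture and time since azacytidine, if they differed between groups, cannot be told apart from treatment. The labels do not say that replicates were separate cultures, so p-values measure the spread between these samples, which may be technical.

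Glycolysis splits glucose into pyruvate in the cytosol and yields ATP and NADH. Its upper steps use ATP to phosphorylate the sugar and cleave it into triose phosphates, and its lower steps return ATP. Lactate dehydrogenase then reduces pyruvate to lactate and regenerates the NAD that the pathway needs. Tumour cells often run the pathway fast even where oxygen is present, and hypoxia-inducible factors and MYC are known activators of many of its genes.

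Every tested probe of the enzymes was lower after azacytidine, none was detectably changed by TSA alone, and nearly all were lower after the combined treatment. After azacytidine, 16 of 16 tested probes fell and 0 rose, where 32.1% of all tested probes fell and 30.2% rose. After the combined treatment 15 of 16 fell and 0 rose, where 37.8% of all tested probes fell and 30.8% rose. After TSA 0 of 16 passed in either direction, against 0.101% of all tested probes. A probe is said to have risen or fallen where its adjusted p was under 0.05 in limma, a linear model with a moderated variance fitted to all tested probes and adjusted by Benjamini-Hochberg. Values below are log2 of the normalised intensity, and changes are differences of group means on that scale. Levels of different probes are not compared, since a probe's brightness depends on its binding as well as on its transcript.

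**Figure D1:**
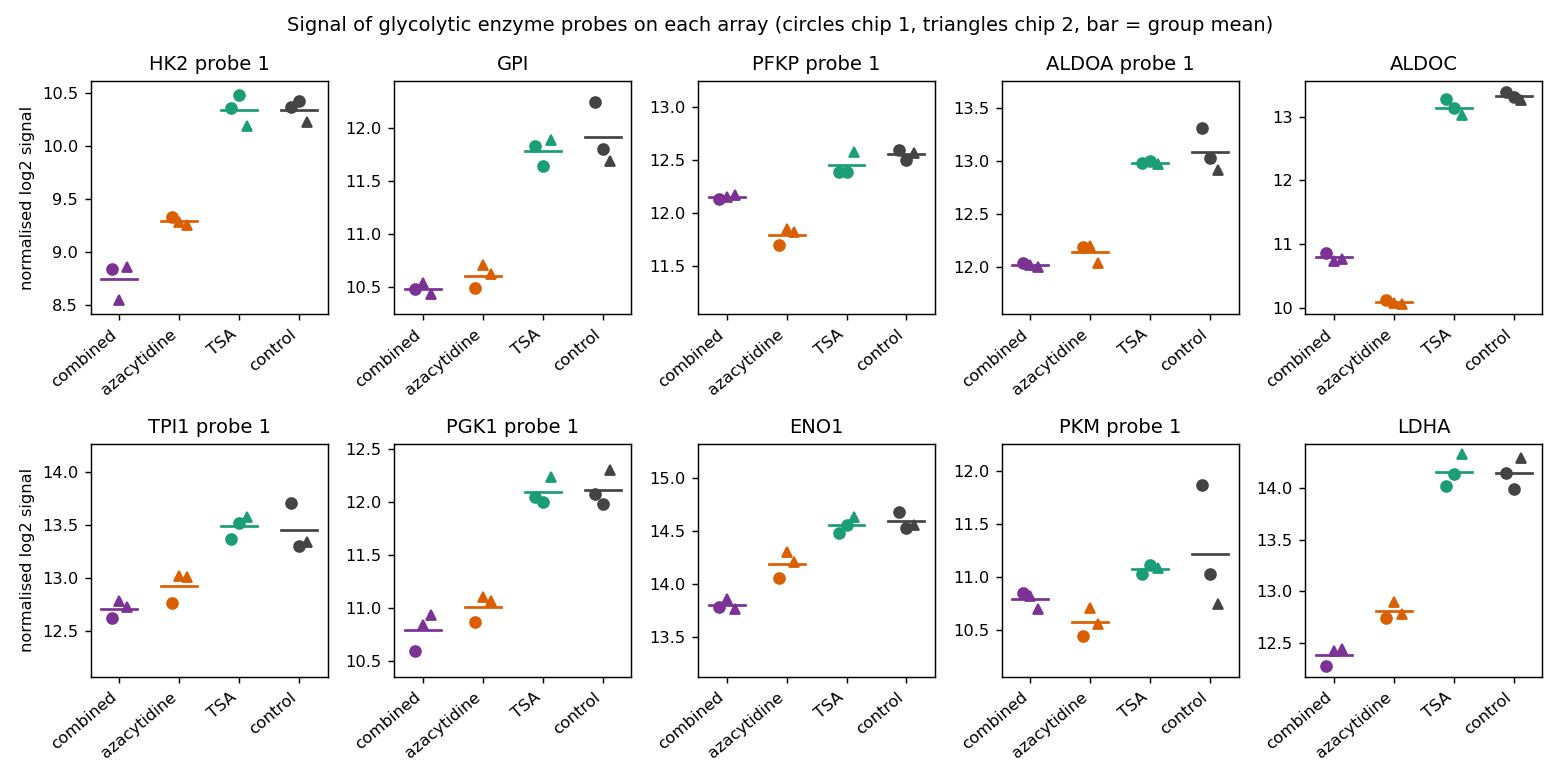
Normalised log2 intensity (vertical axis, its range set per panel) of 1 probe for each of the 10 glycolytic enzymes, with each array as a point (circles for chip 1, triangles for chip 2) and the group mean as a bar, groups from left to right combined, azacytidine, TSA and control. The combined and azacytidine points of ALDOC lie between 10.07 and 10.87, and its TSA and control points lie between 13.02 and 13.39.

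Both HK2 probes were low wherever azacytidine had been given, and lowest after the combined treatment. HK2 is the inducible hexokinase that traps glucose in the cell as glucose phosphate. Its probe 1 read 8.83, 8.54 and 8.86 in combined cells, 9.33, 9.28 and 9.25 in azacytidine cells, 10.35, 10.48 and 10.19 in TSA cells, and 10.36, 10.42 and 10.22 in control cells. The 3 combined arrays lay below the 3 azacytidine arrays, which lay below all TSA and control arrays, and TSA and control overlapped. Against control, probe 1 changed by -1.59 ± 0.10 after the combined treatment (SE, n = 3 per group; limma adjusted p = 2.88e-08) and by -1.05 ± 0.10 after azacytidine (limma adjusted p = 1.96e-06), which is 3.01-fold and 2.07-fold lower. HK2 probe 2 averaged 7.85 ± 0.10 in combined cells, 8.53 ± 0.09 in azacytidine cells, 9.72 ± 0.18 in TSA cells and 9.65 ± 0.18 in control cells (SD, n = 3 each). Its order of groups was the same as that of probe 1, and the 2 probes had a Pearson r of 0.968 over the 12 arrays, which share the 4 groups and the 2 chips.

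GPI, the isomerase that turns glucose phosphate into fructose phosphate, fell to nearly the same level under both treatments that contained azacytidine. It read 10.48, 10.54 and 10.44 in combined cells, 10.49, 10.71 and 10.62 in azacytidine cells, 11.83, 11.64 and 11.89 in TSA cells, and 12.25, 11.80 and 11.69 in control cells. The combined and azacytidine arrays overlapped each other and lay apart from the other 6, and the difference between those 2 groups was -0.12 with a 95% interval of -0.40 to 0.16. Its change was -1.43 ± 0.13 after the combined treatment and -1.31 ± 0.13 after azacytidine (SE). Control replicate 1 stood above the other 2 control arrays for GPI. The same held for every tested probe of PFKP, ALDOA, ALDOC, TPI1, ENO1 and PKM, but not for HK2, PGK1 or LDHA.

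PFKP, the platelet-type phosphofructokinase at the committed step of the pathway, fell less after the combined treatment than after azacytidine. Its probe 1 read 12.14, 12.15 and 12.17 in combined cells, 11.70, 11.85 and 11.82 in azacytidine cells, 12.38, 12.39 and 12.58 in TSA cells, and 12.60, 12.50 and 12.57 in control cells. The combined arrays lay between the azacytidine arrays and all the others without overlap. Against control the change was -0.40 ± 0.08 after the combined treatment (SE; limma adjusted p = 0.000581) and -0.77 ± 0.08 after azacytidine (limma adjusted p = 2.93e-06).

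ALDOC had the largest change of the set. It encodes aldolase C, best known as the brain form of the enzyme that cleaves fructose bisphosphate into triose phosphates. It read 10.87, 10.74 and 10.77 in combined cells, 10.12, 10.07 and 10.07 in azacytidine cells, 13.27, 13.14 and 13.02 in TSA cells, and 13.39, 13.32 and 13.26 in control cells. The azacytidine arrays were the lowest, the combined arrays lay just above them, and both lay far below the TSA and control arrays. It was 5.78-fold lower than control after the combined treatment (-2.53 ± 0.08, SE; limma adjusted p = 2.18e-11) and 9.43-fold lower after azacytidine (-3.24 ± 0.08; limma adjusted p = 2.13e-12). Only 9 of the 13915 tested probes had a lower change after azacytidine, and 24 after the combined treatment.

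ALDOA, the muscle-type aldolase that most tissues express, fell by a smaller amount than ALDOC. Probe 1 read 12.04, 12.03 and 12.001 in combined cells, 12.19, 12.20 and 12.04 in azacytidine cells, 12.99, 12.9996 and 12.97 in TSA cells, and 13.32, 13.03 and 12.92 in control cells. Its changes against control were -1.07 ± 0.10 after the combined treatment and -0.95 ± 0.10 after azacytidine (SE). Probe 2 averaged 6.90 ± 0.07 in combined cells, 7.38 ± 0.14 in azacytidine cells, 8.13 ± 0.09 in TSA cells and 8.22 ± 0.21 in control cells (SD, n = 3 each). The probes differed in that combined and azacytidine arrays overlapped for probe 1 and lay apart for probe 2. Probe 2 was near the detection limit in combined cells, with a detection p of 0.00527 on each array against a cut-off of 0.01. Its change against control after the combined treatment was -1.32, and as small as -0.65 in the alternatives.

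TPI1, which interconverts the triose phosphates, fell modestly. Probe 1 read 12.62, 12.78 and 12.72 in combined cells, 12.76, 13.02 and 13.002 in azacytidine cells, 13.36, 13.52 and 13.57 in TSA cells, and 13.71, 13.30 and 13.34 in control cells. The change against control was -0.74 ± 0.12 after the combined treatment (SE; limma adjusted p = 8.91e-05) and -0.53 ± 0.12 after azacytidine (limma adjusted p = 0.00158). Probe 2 gave -0.74 ± 0.13 and -0.56 ± 0.13 for the same comparisons, in that order.

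PGK1, which makes the first ATP of the lower steps of the pathway, fell on both of its probes but by unequal amounts. Probe 1 read 10.60, 10.84 and 10.93 in combined cells, 10.86, 11.10 and 11.07 in azacytidine cells, 12.05, 12.004 and 12.24 in TSA cells, and 12.07, 11.98 and 12.30 in control cells. Combined and azacytidine arrays overlapped and lay apart from the rest. Probe 1 changed by -1.33 ± 0.12 after the combined treatment and by -1.11 ± 0.12 after azacytidine, and probe 2 by -0.62 ± 0.08 and -0.49 ± 0.08 (SE). All 4 of these changes passed the limma test, with adjusted p of at most 0.000227.

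ENO1, the main enolase of most tissues, showed the smallest drop of the set after azacytidine. It read 13.78, 13.86 and 13.76 in combined cells, 14.06, 14.30 and 14.21 in azacytidine cells, 14.48, 14.55 and 14.63 in TSA cells, and 14.68, 14.53 and 14.56 in control cells. The 3 combined arrays were the lowest and did not overlap any other group. Its change against control was -0.79 ± 0.08 after the combined treatment (SE; limma adjusted p = 3.3e-06) and -0.40 ± 0.08 after azacytidine (limma adjusted p = 0.00117). On chip 2 alone the azacytidine difference was -0.30 and did not pass (limma adjusted p = 0.0715). TPI1, PGK1, ENO1 and LDHA have near-identical copies elsewhere in the genome, and probe sequences were not used here, so signal from such copies cannot be told apart.

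PKM, the pyruvate kinase that makes the last ATP of the pathway, was the least certain member. Its probe 1 read 10.85, 10.82 and 10.70 in combined cells, 10.45, 10.71 and 10.56 in azacytidine cells, 11.03, 11.11 and 11.08 in TSA cells, and 11.87, 11.03 and 10.75 in control cells. Control replicate 1 stood well above the other control arrays on all 3 PKM probes, and the combined arrays of probe 1 overlapped control. Probe 1 stood at -0.42 ± 0.21 against control after the combined treatment, which did not pass (SE; limma adjusted p = 0.0859), and fell after azacytidine, at -0.64 ± 0.21 (limma adjusted p = 0.0165). Probe 2 changed by -0.82 ± 0.25 and -1.04 ± 0.25 and probe 3 by -1.33 ± 0.25 and -1.21 ± 0.25 in the same comparisons, and these 4 changes passed. On chip 2 alone, which lacks control replicate 1, the azacytidine differences of probes 1, 2 and 3 were -0.11, -0.50 and -0.69 and none passed (limma adjusted p = 0.48, 0.156 and 0.0502). The azacytidine call of probe 1 was lost without azacytidine replicate 1 (limma adjusted p = 0.0543). In the combined comparison, the call of probe 2 was lost without control replicate 1 (-0.51; limma adjusted p = 0.0509). Probe 1 stood at -0.10 without control replicate 1, and at -0.66 without control replicate 3, where it passed (limma adjusted p = 0.00847).

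LDHA, the lactate dehydrogenase subunit that favours lactate formation, was among the most reduced members. It read 12.28, 12.43 and 12.44 in combined cells, 12.74, 12.89 and 12.78 in azacytidine cells, 14.01, 14.13 and 14.32 in TSA cells, and 14.15, 13.99 and 14.29 in control cells. The combined arrays lay below the azacytidine arrays and both lay below all TSA and control arrays. LDHA was 3.39-fold lower than control after the combined treatment (-1.76 ± 0.10, SE; limma adjusted p = 8.88e-09) and 2.53-fold lower after azacytidine (-1.34 ± 0.10; limma adjusted p = 1.79e-07).

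**Figure D2:**
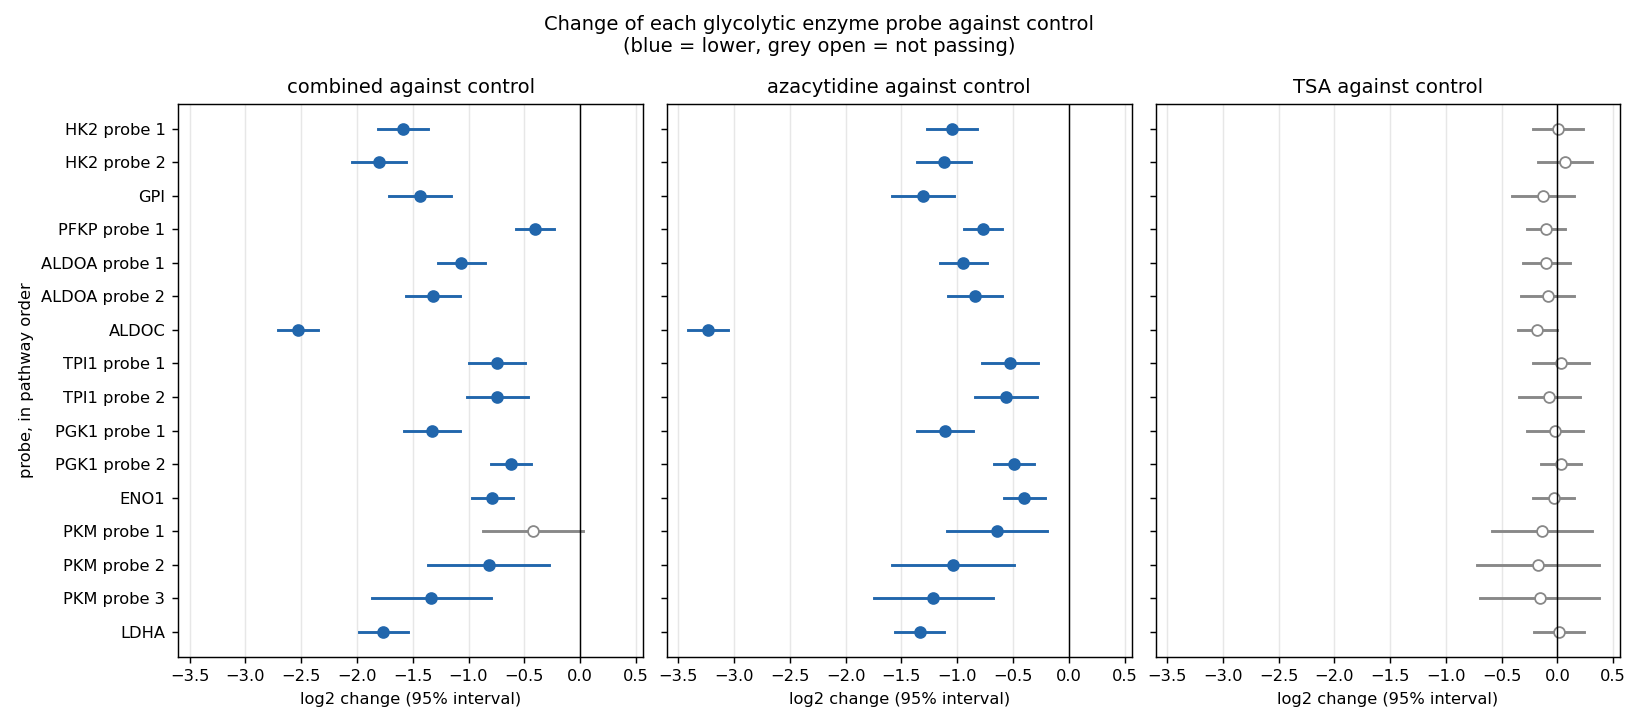
Log2 change against control (horizontal axis) of each tested probe, in pathway order from top to bottom, for the combined, azacytidine and TSA groups, with 95% intervals from limma as bars. Azacytidine changes run from -3.24 for ALDOC to -0.40 for ENO1, and TSA changes run from -0.18 to 0.06.

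Across the set, azacytidine changes had a median of -0.99, beside -0.02 over all tested probes, and combined changes a median of -1.19, beside -0.07. Without control replicate 1 the medians of the set were -0.79 after azacytidine and -0.98 after the combined treatment. On 16 of 16 probes all azacytidine arrays lay below all control arrays, against 33.7% of all tested probes, and on 15 of 16 all combined arrays did, against 38.6%. The arrays were run on 2 chips, and chip 1 held 4 of the 6 TSA and control arrays but only 2 of the 6 arrays with azacytidine. Within chip 1 the median change was -1.28 after the combined treatment and -1.03 after azacytidine. Within chip 2, which lacks control replicate 1, it was -0.90 and -0.71. All 16 probes were below control on both chips after azacytidine, and 16 passed on chip 1 alone and 12 on chip 2 alone, where the PKM probes and ENO1 did not. After the combined treatment the exception was PKM probe 1 on chip 2, at 0.01. Fewer cells of a kind and less RNA per cell cannot be told apart in bulk RNA.

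**Figure D3:**
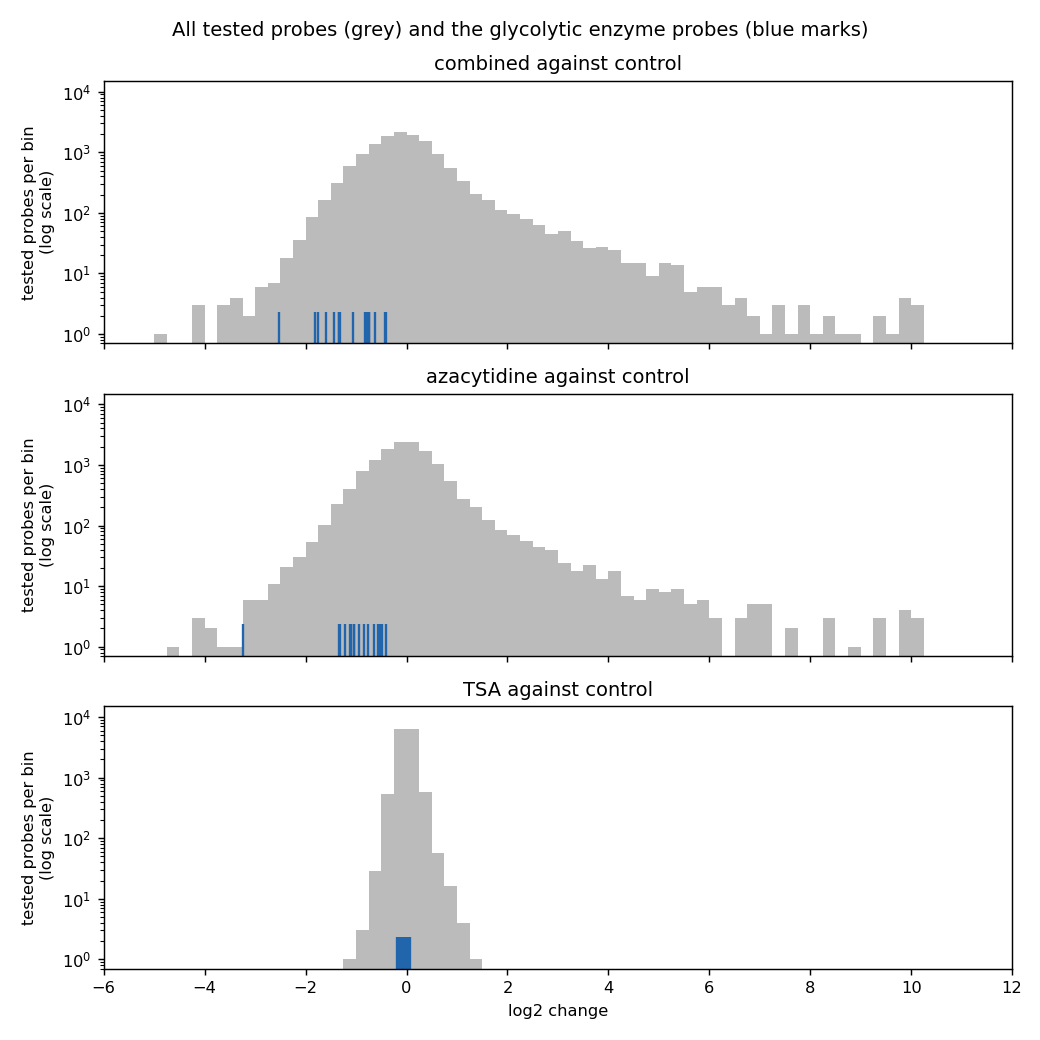
Distribution of log2 changes (horizontal axis) over all 13915 tested probes, as a histogram with the number of probes on a logarithmic vertical axis, and the 16 tested probes of the glycolytic enzymes as marks, for each comparison against control. The marks lie at or below -0.40 after azacytidine and after the combined treatment and around 0 after TSA.

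TSA alone gave no detectable change in any of the enzymes at this replication. With limma 0 of 16 probes passed, and 1 had an unadjusted p under 0.05, against 7.92% of all tested probes. That probe was ALDOC, at -0.18 ± 0.08 (SE; limma adjusted p = 0.626). The median of the 16 changes was -0.08, and their 95% intervals all lay between -0.72 and 0.38, the widest being those of PKM. The median was -0.15 within chip 1 and 0.07 within chip 2. LDHA, for example, differed from control by 0.01 with an interval of -0.21 to 0.23, and HK2 probe 2 by 0.06 with an interval of -0.18 to 0.31. A p that misses the threshold does not show that the levels were equal.

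Azacytidine was also compared in cells that went on to receive TSA, by setting the combined group against TSA alone. There 15 of 16 probes fell and 0 rose, where 38.2% of all tested probes fell and 30.9% rose. The median change was -1.07. The changes ran from -2.35 ± 0.08 for ALDOC (SE; limma adjusted p = 4.65e-11) to -0.28 ± 0.21 for PKM probe 1, which did not pass (limma adjusted p = 0.239). LDHA changed by -1.77 ± 0.10, HK2 probe 1 by -1.59 ± 0.10 and PFKP probe 1 by -0.30 ± 0.08, all past the test. The call of PKM probe 2 (-0.65 ± 0.25; limma adjusted p = 0.0363) was lost without TSA replicate 2 or 3 or without combined replicate 1 or 3, with adjusted p of 0.119, 0.0808, 0.0904 and 0.108. PKM probe 1 passed this comparison without control replicate 1, which enters only through the shared variance (limma adjusted p = 0.0193). The median was -1.09 within chip 1 and -1.10 within chip 2.

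A minority of the tested probes differed between combined and azacytidine cells. In combined cells, set against azacytidine cells, 5 of 16 probes were lower, against 19% of all tested probes, and 2 were higher, against 14.8%. The lower ones were HK2 probe 1 (-0.54 ± 0.10), HK2 probe 2 (-0.68 ± 0.11), ALDOA probe 2 (-0.48 ± 0.11), ENO1 (-0.39 ± 0.08) and LDHA (-0.42 ± 0.10), each with its SE. The higher ones were PFKP probe 1 (0.37 ± 0.08) and ALDOC (0.71 ± 0.08; limma adjusted p = 3.68e-05). Scaling the arrays by their medians alone shifted all probes by a median of -0.20 in this comparison and left PFKP probe 1 at 0.12 (limma adjusted p = 0.521). ALDOA probe 1 stood at -0.12 with a 95% interval of -0.33 to 0.09, so the 2 ALDOA probes differed in their call. ALDOA probe 2 was near the detection limit in combined cells. The median over the 16 probes was -0.15, with -0.13 within chip 1 and -0.20 within chip 2. It was -0.29 without azacytidine replicate 1, -0.24 without combined replicate 2 and -0.09 without azacytidine replicate 2.

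Whether the azacytidine change itself differed with and without TSA was tested as the interaction of the 2 drugs. It passed for 3 of 16 probes in the direction of a larger drop with TSA, against 10.7% of all tested probes, and for 2 in the direction of a smaller drop, against 10.4%. In either direction 21.1% of all tested probes passed. HK2 gave -0.55 ± 0.15 on probe 1 (SE; limma adjusted p = 0.019) and -0.75 ± 0.16 on probe 2 (limma adjusted p = 0.00535). LDHA gave -0.44 ± 0.14 (limma adjusted p = 0.0486), a call that was lost in 16 of 24 alternative analyses, among them the removal of any single array other than TSA replicate 1 or control replicate 3, with adjusted p of 0.056 to 0.116. The call of HK2 probe 1 was lost under cyclic loess normalisation (limma adjusted p = 0.0618) and without the filter on dim probes (limma adjusted p = 0.0545). PFKP probe 1 gave 0.47 ± 0.11 (limma adjusted p = 0.0104), and 0.25 under median scaling (limma adjusted p = 0.357). ALDOC gave 0.89 ± 0.12 (limma adjusted p = 0.00021). ENO1, at -0.36 ± 0.12, did not pass (limma adjusted p = 0.0517) but passed in 7 of 24 alternatives, among them chip as a block (limma adjusted p = 0.0269) and the removal of azacytidine replicate 1 (0.0277) or control replicate 1 (0.0396). GPI did not pass, at 0.01 with a 95% interval of -0.39 to 0.40.

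**Figure D4:**
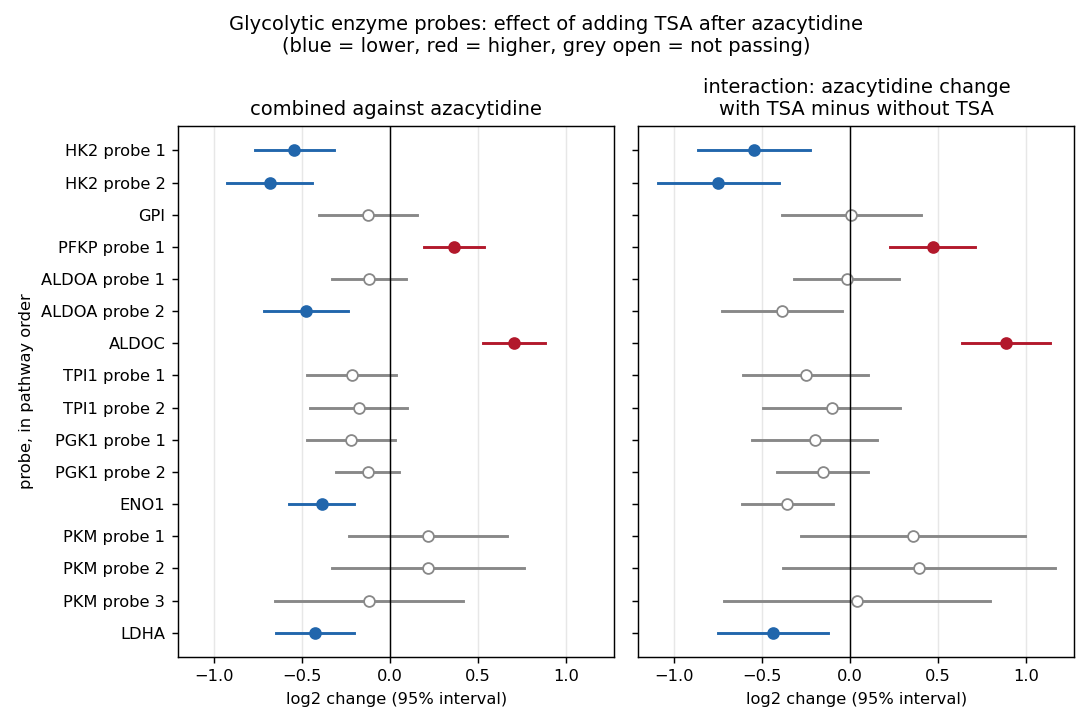
Log2 change (horizontal axis, 95% interval from limma as bars) of each tested probe in combined against azacytidine cells on the left and the interaction of the 2 drugs on the right, with filled points for probes that passed. HK2, at -0.54 and -0.68 on the left, and ALDOC, at 0.71, lie on opposite sides of 0 in both panels.

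The 3 genes with the largest drops after the combined treatment were ALDOC, HK2 and LDHA, and their promoters are shown because ALDOC moved up and HK2 and LDHA moved down when TSA followed azacytidine. Windows of 250 bases before to 50 bases after each annotated start came from RefSeq (GRCh38.p14). They were searched on both strands for ACGTG and GCGTG, core motifs of hypoxia-inducible factors. Matches are in capitals, read as CACGT or CACGC where the motif lies on the other strand, and CACGTG holds ACGTG on both strands. ALDOC has 1 window, at chr17:28576846-28577145 on the minus strand. For HK2 and LDHA, the window with the most matches is given, at chr2:74834920-74835219 and chr11:18394313-18394612, both on the plus strand.
ALDOC: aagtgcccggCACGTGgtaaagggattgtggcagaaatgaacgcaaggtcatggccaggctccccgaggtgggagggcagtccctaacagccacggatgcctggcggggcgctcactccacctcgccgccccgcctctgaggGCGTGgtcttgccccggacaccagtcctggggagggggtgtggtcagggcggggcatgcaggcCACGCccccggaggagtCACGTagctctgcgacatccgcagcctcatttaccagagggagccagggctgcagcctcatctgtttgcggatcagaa
HK2: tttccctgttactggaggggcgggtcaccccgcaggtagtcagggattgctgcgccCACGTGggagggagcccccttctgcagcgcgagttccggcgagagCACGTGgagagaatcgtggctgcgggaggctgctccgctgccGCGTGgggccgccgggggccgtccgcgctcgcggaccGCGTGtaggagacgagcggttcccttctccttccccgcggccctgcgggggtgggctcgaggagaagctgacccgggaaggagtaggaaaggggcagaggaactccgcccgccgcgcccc
LDHA: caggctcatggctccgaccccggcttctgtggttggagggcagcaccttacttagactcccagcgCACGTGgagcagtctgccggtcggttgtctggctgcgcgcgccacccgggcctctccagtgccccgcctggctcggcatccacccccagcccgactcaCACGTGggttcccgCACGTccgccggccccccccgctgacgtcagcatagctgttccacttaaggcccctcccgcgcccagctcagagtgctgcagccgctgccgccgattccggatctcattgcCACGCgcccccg
Each of these windows held 4 separate capital stretches, although those of HK2 and LDHA were picked for having the most matches. The other HK2 window held 3 and the other LDHA window 1. A link between the motif and the direction of change was not tested. Over the 10 genes, 15 of 18 windows (83.3%) held ACGTG or GCGTG, against 48.4% of the 35116 windows in the table. CACGTG, the palindromic E-box that MYC and related factors bind, was in 4 of 18 windows (22.2%), against 7.26% of the table. Some windows of a gene overlap, base composition was not matched, and a match is a string of letters and not a measured binding site.

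The other genes of the pathway moved mostly the same way. Of 22 listed further glycolysis genes, 14 were tested on their brightest detected probe. After the combined treatment 10 of the 14 fell and 1 rose, where 37.8% of all tested probes fell and 30.8% rose. After azacytidine 12 fell and 2 rose, where 32.1% of all tested probes fell and 30.2% rose, and after TSA 0 passed. GAPDH, which oxidises glyceraldehyde phosphate, read 14.16, 14.17 and 14.16 in combined cells, 14.30, 14.36 and 14.39 in azacytidine cells, 14.91, 14.90 and 14.98 in TSA cells, and 15.07, 14.88 and 14.88 in control cells. Every combined and azacytidine array lay below every TSA and control array. Its change was -0.78 ± 0.08 after the combined treatment and -0.59 ± 0.08 after azacytidine (SE). The phosphoglycerate mutase PGAM1 changed by -1.34 ± 0.11 and -0.96 ± 0.11 in those comparisons, and the neuronal-type enolase ENO2 by -1.27 ± 0.09 and -2.02 ± 0.09. GAPDH and PGAM1 also have near-identical copies in the genome. PFKL, the liver-type phosphofructokinase, fell by 1.28 on the log2 scale after the combined treatment, and PFKFB4, which makes a phosphofructokinase activator, by 0.93 after azacytidine. HKDC1, a hexokinase family member, was not detected on any azacytidine array and was at least 2.35-fold lower there than in control cells. It was detected on only 1 of 3 combined arrays. BPGM, which makes bisphosphoglycerate, rose by 0.83 ± 0.14 after the combined treatment and by 0.47 ± 0.14 after azacytidine, and ADPGK, an ADP-dependent glucokinase, by 0.30 ± 0.07 after azacytidine. These last 2 were chosen after their values were seen.

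**Figure D5:**
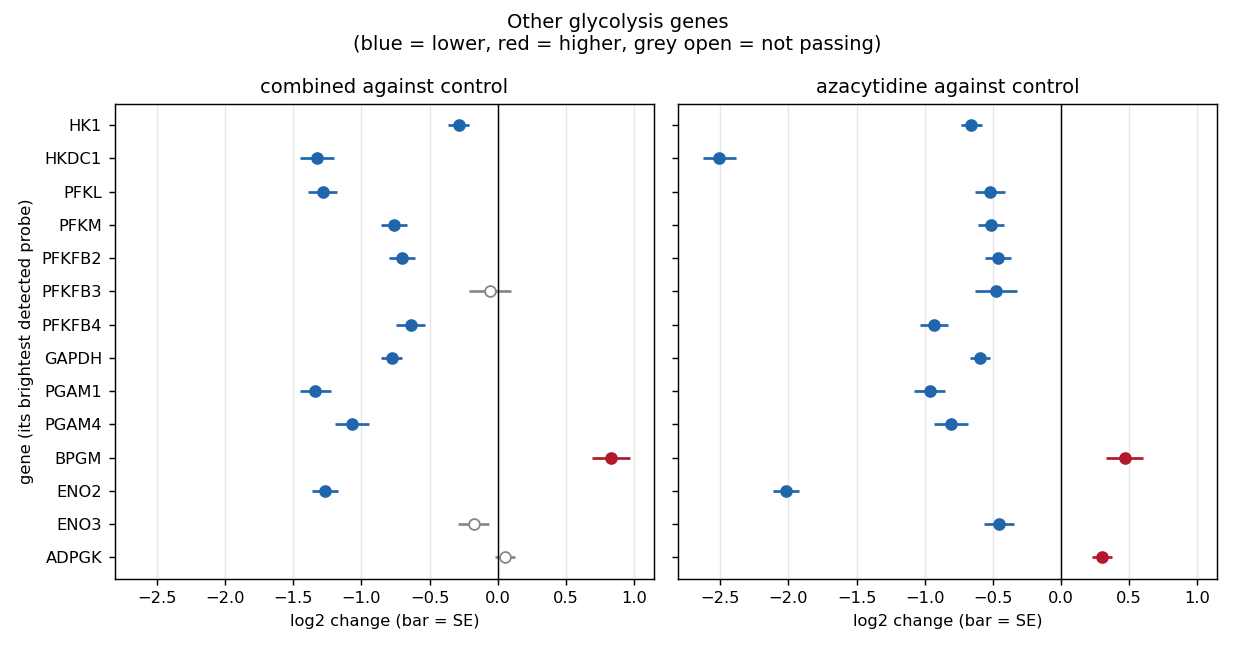
Log2 change against control (horizontal axis, SE from limma as bars) of the 14 tested further glycolysis genes in combined cells on the left and azacytidine cells on the right, with filled points for genes that passed. BPGM is the gene above 0 that passed in both panels, at 0.83 and 0.47, and the point of HKDC1 for azacytidine is a fitted value below detection and that for the combined group rests on 1 detected array of 3.

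Enzymes that handle pyruvate and lactate changed in shares near those of the whole array. Of 19 listed genes 12 were tested. After the combined treatment 5 fell and 3 rose, beside 37.8% and 30.8% of all tested probes, after azacytidine 3 fell and 3 rose, beside 32.1% and 30.2%, and after TSA 0 passed. LDHB, the lactate dehydrogenase subunit that favours pyruvate, changed by -0.60 ± 0.08 after the combined treatment and by -0.29 ± 0.08 after azacytidine (SE). PDK3, a kinase that inhibits pyruvate dehydrogenase, changed by -1.35 ± 0.12 and -1.38 ± 0.12. PDP1, the phosphatase that reactivates the same complex, rose by 1.70 ± 0.09 and 1.35 ± 0.09. PDK1 had no probe detected on enough arrays to be tested. MPC1, a subunit of the mitochondrial pyruvate carrier, rose by 0.44 ± 0.09 after azacytidine, and PDHX, a pyruvate dehydrogenase component, changed by -0.77 ± 0.14 after the combined treatment. PDK2 was detected on only 2 of 3 control arrays and on 0 of 3 in both the combined and azacytidine groups. It was at least 1.23-fold lower than control after the combined treatment and at least 1.225-fold lower after azacytidine.

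Of 18 listed regulators of the pathway 14 were tested. After the combined treatment 4 fell and 3 rose, beside 37.8% and 30.8% of all tested probes, after azacytidine 4 fell and 3 rose, beside 32.1% and 30.2%, and after TSA 0 passed, so neither direction was more frequent than on the whole array. HIF1A, the oxygen-regulated subunit of hypoxia-inducible factor 1, read 9.29, 9.36 and 9.36 in combined cells, 9.36, 9.15 and 9.51 in azacytidine cells, 8.92, 9.08 and 8.83 in TSA cells, and 8.85, 8.73 and 9.005 in control cells. Its RNA rose by 0.48 ± 0.11 after both (SE; limma adjusted p = 0.00155 after the combined treatment and 0.00171 after azacytidine). TIGAR, a phosphatase known to lower a phosphofructokinase activator, rose by 1.61 ± 0.11 and 1.65 ± 0.11. MYC changed by -0.82 ± 0.08 after the combined treatment. It was also lower after azacytidine alone, at 11.98, 11.93 and 12.04, against 12.43, 12.40 and 12.61 in control cells. MLXIPL, a glucose-responsive transcription factor, changed by -1.003 ± 0.10 after azacytidine. Its combined arrays read 11.47, 11.28 and 11.31 and its control arrays 11.58, 11.85 and 11.74. ESRRA, an orphan nuclear receptor, changed by -0.53 ± 0.07 after the combined treatment. EGLN3, an oxygen-sensing prolyl hydroxylase, was lower after azacytidine, where it was detected on only 1 of 3 arrays. HNRNPA1, a splicing factor known to act on the PKM transcript, changed by -0.64 ± 0.24 after the combined treatment and by -0.89 ± 0.24 after azacytidine, where 2 of 3 arrays detected it, and it too has near-identical copies.

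The mean profile of the 10 genes, each by its brightest probe and centred, was set against the 9474 other tested genes over the 12 arrays, as a description. The genes most like it by Pearson r were DHCR7 (0.994), WARS1 (0.993), EIF1 (0.993), WDR45B (0.992), FAM170B (0.991) and CA11 (0.991). The 12 points share the 4 groups, so any gene low in both groups with azacytidine scores high. Among the members, r with this profile, of which each is a part, ran from 0.754 for PKM and 0.861 for PFKP to 0.996 for GPI.

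Over the whole series, 11742 to 13647 probes were detected per array, raw median intensities lay between 117 and 135, and arrays of a group correlated at 0.991 to 0.996. Markers of colon epithelium were detected in every group, 6 of 7 (EPCAM, KRT8, KRT18, KRT19, CDH1 and CDX2, but not VIL1), and their mean level per array was 10.94 to 11.20 in combined, 10.72 to 10.95 in azacytidine, 11.04 to 11.27 in TSA and 11.05 to 11.26 in control cells. Of 6 mesenchymal markers VIM was detected on all arrays with azacytidine and on no other, COL1A1 on some combined arrays, and the other 4 on none. Their mean level was 6.08 to 6.20 in combined, 5.94 to 5.99 in azacytidine, 5.12 to 5.15 in TSA and 5.15 to 5.24 in control cells. Of 4 blood cell markers with a probe CD68 was detected everywhere and CD14 on the arrays with azacytidine, while PTPRC and CD3E were detected on none, and the mean level was 7.50 to 7.68, 7.45 to 7.47, 6.93 to 7.19 and 6.99 to 7.22 in the same order of groups. Of 3 endothelial markers PECAM1 was detected in the azacytidine group only, and not on all of its arrays. CDH5 and KDR were detected on no array, and the mean level was 5.25 to 5.32, 5.11 to 5.51, 5.29 to 5.52 and 5.32 to 5.37. The part of these markers in the changes of the enzymes was not tested. Scaling by array medians shifted all probes by a median of -0.35 after the combined treatment and -0.14 after azacytidine against control, and all 16 enzyme probes stayed below the median of all probes. That scaling called 2373 probes higher and 6796 lower after the combined treatment, against 4288 and 5254 in the analysis above, and 2749 and 4681 after azacytidine, against 4202 and 4465.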

How the data were processed

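RNA from 12 samples of SW48 cells was measured on 1-colour Illumina arrays, and samples were grouped by the treatment in their labels. The authors deposited linear probe intensity values without background correction, summarised with GenomeStudio per the submitters' processing notes. A detection p-value stands beside each intensity, per the file headers. The authors also deposited processed log2 values, made with an unstated transform after lumi 2.6.0 per the notes, which served as an alternative. The genome build behind the authors' files was not given in the sources used here. The promoter windows are on RefSeq's own build, GRCh38.p14.

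Intensities were corrected with limma 3.58.1 in R 4.3.3 (normal-exponential model from the detection p-values, offset 16), quantile-normalised and logged to base 2. The filter asked for detection (p under 0.01) in 3 or more arrays out of 12 and kept 13915 of 48801 probes; 2 rows without a probe identifier were left out. Names came from the platform annotation, which gives 27577 probes 1 gene. Group means were fitted to all 12 arrays with limma, with Benjamini-Hochberg adjustment over all kept probes and a threshold of 0.05. A bound such as "at least 2.35-fold" sets the brighter group's mean against the dimmer one's detection limit. On simulated data of the same 13915 probes for azacytidine against control, the fit recovered 96 of 200 probes changed by 0.5 and 194 of 200 changed by 1 (log2). It made 8 and 16 false calls. Only 200 probes were changed there, a far smaller share than passed in the measured data, so these rates need not hold for those data. The number of arrays limits the precision.

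The members and the other gene lists were chosen with earlier results of these data known. Named were all member probes; in each other list up to 4 passing genes with the largest change per comparison; GAPDH, PGAM1, LDHB, PDK1 and HIF1A always; and the 6 genes most like the members' mean. Other gene lists use the brightest detected probe of a gene. Alternatives were the offset, the scaling, the filter, 1 probe per gene, the authors' values, array weights, chip and replicate blocks, single chips, the compared arrays alone, and leaving out each array.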

Additional observations from a re-analysis of the deposited data

Results flagged for a closer look

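By limma's interaction test over all 13915 probes, the azacytidine changes of 5 probes of 4 enzymes differed between cells that went on to receive TSA and cells that did not. That count was 3 with median scaling, 3 with cyclic loess, 3 with dim probes kept, 0 on chip 1 alone and 1 on chip 2 alone. HK2 was lowered further where TSA followed, by an interaction of -0.55 on probe 1 (limma adjusted p = 0.019) and -0.75 on probe 2 (limma adjusted p = 0.00535). Its 3 combined arrays lay below its 3 azacytidine arrays on both probes. LDHA gave an interaction of -0.44 (limma adjusted p = 0.0486), a call lost in 16 of 24 alternatives. PFKP probe 1 and ALDOC were lowered less where TSA followed, with interactions of 0.47 (limma adjusted p = 0.0104) and 0.89 (limma adjusted p = 0.00021). PFKP did not pass under median scaling (0.25, limma adjusted p = 0.357). Time since azacytidine, if it differed between the groups, cannot be told apart from TSA in these values. Over all tested probes 21.1% passed this test.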

How the results depend on the processing

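No called value of a member changed direction under any alternative run. The count of passing probes after TSA was 0 in every alternative. With each array left out in turn, the count was 15 to 16 after azacytidine, 14 to 16 after the combined treatment, 14 to 16 for combined against TSA, 7 throughout for combined against azacytidine, and 4 to 6 for the interaction. With 1 probe per gene it was 10 of 10 after azacytidine, 9 of 10 after the combined treatment and 9 of 10 for combined against TSA. The interaction was the least stable count: 3 probes under median scaling, 3 under cyclic loess, 3 without the filter on dim probes, 0 on chip 1 alone and 1 on chip 2 alone, where each chip has groups with a single array, assumed to vary like the others. Combined against azacytidine gave 1 on chip 1 alone. With chip as a block the interaction gave 6 and combined against azacytidine 8. Median scaling called 980 probes higher and 3088 lower for combined against azacytidine, against 2062 and 2645, and 592 and 1531 for the interaction, against 1446 and 1493; for combined against TSA it called 2127 and 7357, against 4303 and 5317. Cyclic loess called 2271 and 1758 for combined against azacytidine and 1631 and 919 for the interaction. The causes were not tested. Deviations from group means correlated at -0.28 to 0.42 between same-numbered arrays (median 0.20) and at -0.48 to 0.36 between other arrays (median -0.14). The median was 0.23 for arrays of the same chip and -0.23 across chips. Every replicate 1 was on chip 1 and every replicate 3 on chip 2, while the replicate 2 arrays were split over both chips. Same-numbered arrays on different chips, all of them replicate 2, correlated at -0.28 to -0.01. Arrays of other numbers on the same chip correlated at 0.01 to 0.36. Pairing by number apart from chip was not tested further. For azacytidine, TSA and combined against control the replicate block gave 16, 0 and 15 passing probes. It gave 15 for combined against TSA, 7 for combined against azacytidine and 5 for the interaction. Array number and probe brightness over background limit all of these.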

Other observations

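Genes of the pathways next to glycolysis were also measured. Of 12 listed genes of the pentose phosphate pathway, which branches off at glucose phosphate, 10 were tested. After the combined treatment 6 fell and 3 rose, beside 37.8% and 30.8% of all tested probes, after azacytidine 5 fell and 3 rose, beside 32.1% and 30.2%, and after TSA 0 passed. TKTL1, a transketolase-like gene, read 12.56, 12.50 and 12.59 in combined cells, 11.72, 11.69 and 11.66 in azacytidine cells, 4.78, 4.92 and 4.93 in TSA cells, and 5.04, 5.07 and 5.03 in control cells. It was not detected in control or TSA cells, and was at least 58.8-fold higher than control after the combined treatment and at least 32.4-fold higher after azacytidine. TKT, the main transketolase, changed the other way, by -1.29 ± 0.07 after the combined treatment and by -1.05 ± 0.07 after azacytidine (SE). H6PD, a glucose phosphate dehydrogenase of the endoplasmic reticulum, changed by -0.90 ± 0.11 and -0.82 ± 0.11 in the same comparisons, and PRPS2, which makes phosphoribosyl pyrophosphate, by -0.92 ± 0.08 and -0.70 ± 0.08.

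Of 23 listed genes of gluconeogenesis and glycogen metabolism 16 were tested. With the same shares of all probes beside them, 10 fell and 3 rose after the combined treatment, 8 fell and 1 rose after azacytidine, and 0 passed after TSA. PCK2, the mitochondrial phosphoenolpyruvate carboxykinase, read 10.53, 10.48 and 10.44 in combined cells, 10.16, 10.20 and 10.17 in azacytidine cells, 12.28, 12.24 and 12.25 in TSA cells, and 12.34, 12.27 and 12.36 in control cells. Like ALDOC, it lay lowest in azacytidine cells and slightly higher in combined cells. PYGB, the brain-type glycogen phosphorylase, changed by -1.21 ± 0.12 after the combined treatment and by -1.27 ± 0.12 after azacytidine, and PGM1, a phosphoglucomutase, by -1.12 ± 0.09 and -0.89 ± 0.09 (SE). GBE1, the glycogen branching enzyme, changed by -1.43 ± 0.11 after the combined treatment. The gene that rose after azacytidine was PC, pyruvate carboxylase, at 1.19 ± 0.10, although only 1 of 3 control arrays detected it.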
